A study of Homo sapiens with 6 samples.

Results

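The insulin-like growth factor (IGF) system is described here through 10 genes in FaDu cells with and without a hairpin against NSUN2. They are 6 IGF-binding proteins (IGFBP2 to IGFBP7), the receptors IGF1R and IGF2R, and the insulin receptor substrates IRS1 and IRS2. They were listed by name with earlier results of these data known, and each of the 10 symbols matched a single identifier among the 58825 genes of the count table. FaDu is an established human line of squamous carcinoma cells from the lower pharynx. The shNSUN2 group held 3 RNA sequencing libraries from cells carrying a short hairpin RNA against NSUN2, an RNA cytosine methyltransferase. The FaDu group held 3 libraries from cells that the labels list with no hairpin, and no cells with an unrelated control hairpin were analysed here. Loss of NSUN2, the hairpin itself and its delivery therefore cannot be told apart. The labels do not say whether libraries came from separate cultures or whether the hairpin cells were a single clone, so the p-values below measure the spread between these libraries, which may be technical.

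IGF1 and IGF2 signal through IGF1R, a receptor tyrosine kinase that passes the signal to IRS1 and IRS2 and from there to PI3K and AKT. IGFBP1 to IGFBP6 bind the ligands with high affinity outside the cell and hold them away from the receptor until proteases cut the binding protein, while IGFBP7 binds IGFs only weakly. IGF2R has no kinase: it takes up IGF2 for breakdown and carries enzymes tagged with mannose 6-phosphate to lysosomes.

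Counts below are given as CPM, the deposited estimated counts per 1000000 of a library's total after TMM scaling, which makes libraries comparable. A gene was called where edgeR's quasi-likelihood test gave a Benjamini-Hochberg adjusted p under 0.05 over all 19081 genes tested, two-sided. Of the 10 members, 9 had enough counts to be tested, and 3 of the 9 were called: IGFBP3 and IRS1 higher and IGFBP7 lower in shNSUN2. Over all tested genes 18.5% were called, 8.54% higher and 9.97% lower. The median log2 fold change was -0.06 over the 9 members and -0.01 over all tested genes.

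The start regions of the called members for which RefSeq lists one are shown because these are the genes whose mRNA rose (IGFBP7 has no entry in the table). Each runs from 250 bases before the annotated start to 50 bases after it (GRCh38.p14, written 5′ to 3′ on the gene's own strand), and these starts are not the gene ends of GENCODE 29 given further on. IGFBP3 is on the minus strand at chr7:45921223-45921522 and IRS1 on the minus strand at chr2:226799771-226800070.
IGFBP3: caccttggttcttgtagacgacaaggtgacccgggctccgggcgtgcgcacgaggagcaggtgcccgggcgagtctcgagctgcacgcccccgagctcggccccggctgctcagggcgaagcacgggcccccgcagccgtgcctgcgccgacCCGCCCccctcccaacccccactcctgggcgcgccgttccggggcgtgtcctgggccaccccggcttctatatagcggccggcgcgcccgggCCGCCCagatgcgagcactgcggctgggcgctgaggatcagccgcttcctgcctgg
IRS1: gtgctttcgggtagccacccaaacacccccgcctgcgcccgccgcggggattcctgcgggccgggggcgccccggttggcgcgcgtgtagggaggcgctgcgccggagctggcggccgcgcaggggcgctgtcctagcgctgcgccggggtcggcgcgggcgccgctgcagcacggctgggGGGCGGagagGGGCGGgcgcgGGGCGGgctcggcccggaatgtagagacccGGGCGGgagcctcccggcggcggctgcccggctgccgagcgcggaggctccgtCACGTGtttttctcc
Capitals mark 2 motifs searched on both strands, the GC box GGGCGG and the E-box CACGTG. The exact letters TATAAA of the TATA box and CCAAT of the CCAAT box were searched as well and are in neither window. Looser forms of these motifs were not searched, so a TATA-like element is not excluded. The IGFBP3 window holds 2 GC boxes, both on the opposite strand, 98 and 6 bases before the start. The IRS1 window holds 4 GC boxes at 69, 59, 48 and 18 bases before the start and 1 E-box at base 36 after it. None of these matches overlaps another. Of 35116 RefSeq windows of this length, 44.95% hold a GC box and 7.26% an E-box. GC content was 74.7% for IGFBP3 and 79.3% for IRS1, against a median of 58.7% over all windows. These are matches of letters in a window and no measure of binding.

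NSUN2 itself had 50.4, 34.7 and 39.6 CPM in the shNSUN2 libraries, against 169, 173 and 156 CPM in the FaDu libraries, so it stood at 25.1% of the FaDu level (edgeR adjusted p = 0.000526). By an exact two-sided permutation test the p was 0.1, which is as low as this design can go. Library totals ran from 53612358 to 72788971 units. Replicate 3 of shNSUN2 stood apart by GC content, with a Spearman rho of 0.48 between GC content and its log2 difference from replicate 1 over 19033 genes. All 12 markers of squamous epithelium were detected in both groups, and their summed level was 2520 to 3006 CPM in shNSUN2 and 4741 to 4783 CPM in FaDu. Of the 12, 9 were called lower and 1 higher in shNSUN2 (median log2 fold change -0.69), against 9.97% and 8.54% of all tested genes. The part of that difference in the results below was not tested.

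**Figure D1:**
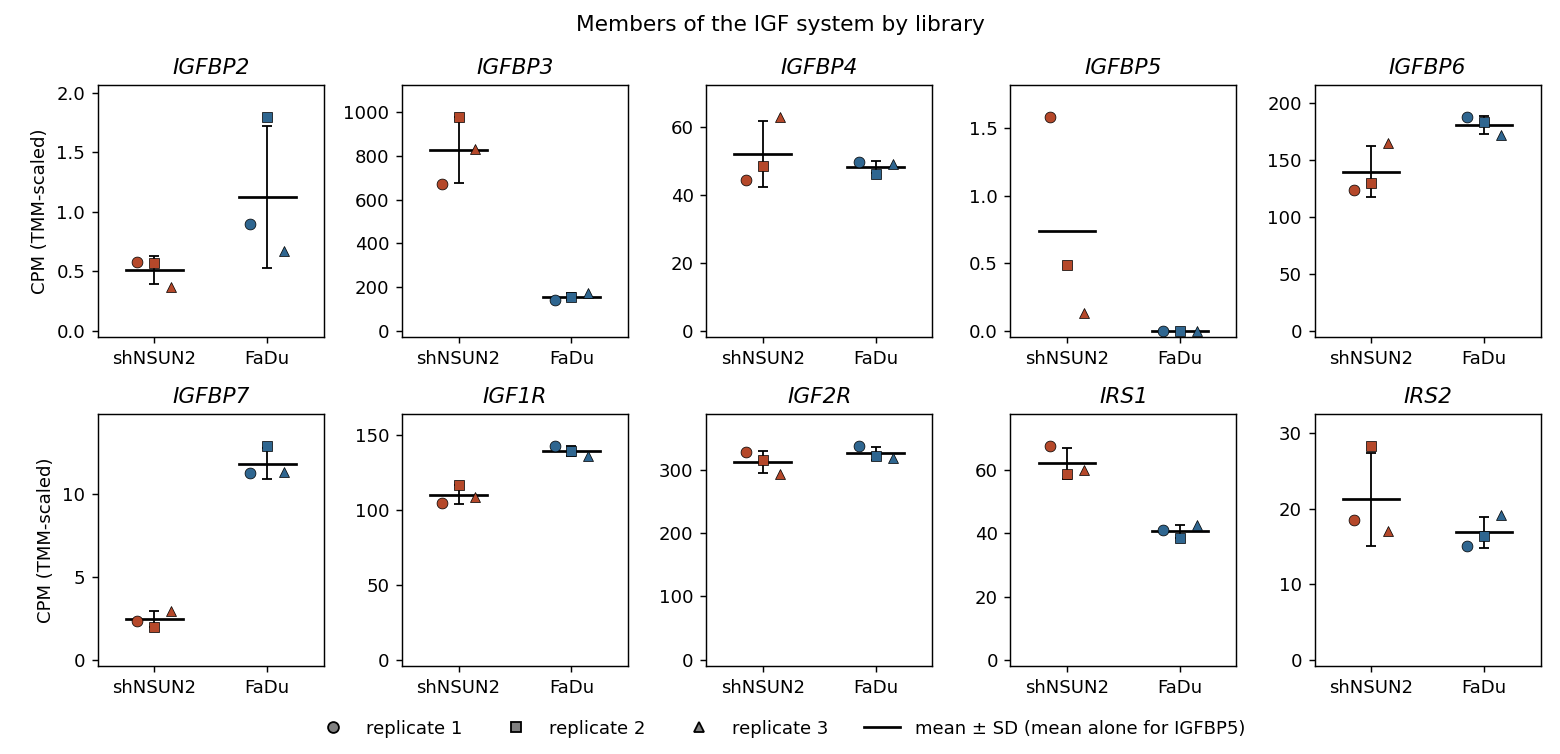
CPM of each of the 10 genes (vertical axis, starting near 0 in each panel) in the 3 shNSUN2 and the 3 FaDu libraries, with points for libraries, a line for the mean and a bar for the SD (IGFBP5 has a mean alone). IGFBP3 and IRS1 lie higher in all shNSUN2 libraries and IGFBP7 lower, while IGFBP4, IGF2R and IRS2 overlap between groups.

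Among the binding proteins, IGFBP3 and IGFBP7 had the largest fold changes of the tested members, in opposite directions. IGFBP3 is the main carrier of IGFs in the circulation, and its protein can also restrain growth of cells independently of IGFs. Its gene lies on chromosome 7 from 45912245 to 45921874 (GENCODE 29, GRCh38). IGFBP3 had 673, 978 and 830 CPM in the shNSUN2 libraries, against 139, 154 and 171 CPM in the FaDu libraries. Every shNSUN2 library was far above every FaDu library. The mean was 827 ± 153 CPM in shNSUN2 and 155 ± 16.1 CPM in FaDu (SD, n = 3 each), a ratio of 5.35. On the log2 scale IGFBP3 rose by 2.42 (SE 0.16, edgeR adjusted p = 0.000335), and by 2.28 to 2.55 with any library left out. The call held in each of those 6 fits.

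IGFBP7, a secreted protein of vessel walls and stroma that is often silenced in carcinomas, lies on chromosome 4 from 57030773 to 57110385. It had 2.34, 1.99 and 2.95 CPM in the shNSUN2 libraries, against 11.3, 12.9 and 11.3 CPM in the FaDu libraries. The groups were well apart. With means of 2.42 ± 0.487 CPM in shNSUN2 and 11.8 ± 0.928 CPM in FaDu (SD, n = 3 each), it stood at 20.5% of the FaDu level. IGFBP7 thus fell by 2.29 on the log2 scale (SE 0.20, edgeR adjusted p = 0.00064). With any library left out the fold change lay between -2.45 and -2.16 and stayed called. The end of the gene overlaps POLR2B on the other strand by 396 bases, and no source used here says whether reads were counted by strand. POLR2B had 132 ± 25.5 CPM in shNSUN2 and 125 ± 3.00 CPM in FaDu (SD, n = 3 each), with a log2 fold change of 0.08 that did not pass the test (edgeR adjusted p = 0.747).

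IGFBP6, which prefers IGF2 to IGF1, lies on chromosome 12 from 53097436 to 53102345. Its level was 124, 130 and 165 CPM in the shNSUN2 libraries, against 188, 184 and 173 CPM in the FaDu libraries. The groups did not overlap, but shNSUN2 replicate 3 came close to FaDu replicate 3. Its log2 fold change of -0.38 (SE 0.14) missed the threshold (edgeR adjusted p = 0.0944). Without shNSUN2 replicate 3 it was -0.51 (edgeR adjusted p = 0.00652), and with an offset for GC content and length -0.46 (edgeR adjusted p = 0.0103), and in both fits IGFBP6 was called lower. Over all alternatives its adjusted p was 0.00652 to 0.249.

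IGFBP4, an inhibitor of IGF action in many tissues, lies on chromosome 17 from 40443461 to 40457731. It had 44.6, 48.6 and 63.0 CPM in the shNSUN2 libraries, against 49.6, 46.3 and 49.1 CPM in the FaDu libraries. The groups overlapped, with a log2 fold change of 0.11 (SE 0.15, edgeR adjusted p = 0.671). Its sign rested on shNSUN2 replicate 3, without which the value was -0.051 (edgeR adjusted p = 0.747).

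IGFBP2 and IGFBP5 are neighbours on chromosome 2, with 7669 bases between them, and both were near the limit of detection. IGFBP2, which spans 216632828 to 216664436, had 0.576, 0.572 and 0.370 CPM in the shNSUN2 libraries, against 0.899, 1.80 and 0.668 CPM in the FaDu libraries. All shNSUN2 values were below all FaDu values, and FaDu replicate 2 stood far above the other 5 libraries. The fitted log2 value was -1.14 (SE 0.45, edgeR adjusted p = 0.119), and -0.63 without FaDu replicate 2.

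IGFBP5, the most conserved of the binding proteins, spans 216672105 to 216695525. It had 1.58, 0.488 and 0.133 CPM in the shNSUN2 libraries, which are 107, 29 and 9 deposited units, against a listed value of 0 in each of the FaDu libraries. The value 4 is over-represented in this table, as if a fragment were worth 4 units, so 3 sequenced fragments were taken as 12 units. That floor lay at 0.160 to 0.220 CPM per library, and shNSUN2 replicate 3 was below it. IGFBP5 did not have the counts to enter the test, and no fold is given. With no filter on low counts edgeR gave an adjusted p of 0.0157, while leaving out FaDu replicate 1, 2 or 3 gave edgeR adjusted p of 0.053, 0.0573 and 0.063. Over the 6 fits that could test it, DESeq2 included, the adjusted p was 5.94e-06 to 0.063. Being at 0 in FaDu, IGFBP5 could pass a filter only through the shNSUN2 libraries, where it is high. These p-values are therefore no separate support for a difference.

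More markers of some other cell types were detected in shNSUN2 than in FaDu. Of 9 smooth muscle markers, 9 reached 12 units in some shNSUN2 library and 5 in some FaDu library. MYH11, the smooth muscle myosin, had 8.29, 1.53 and 1.39 CPM in the shNSUN2 libraries, against 0.948, 0.972 and 1.06 CPM in the FaDu libraries (chosen after its values were seen). DES, the muscle intermediate filament desmin, had 2.75, 0.455 and 0.459 CPM in the shNSUN2 libraries, against 0.114, 0 and 0.107 CPM in the FaDu libraries (also chosen afterwards). Of the 7 smooth muscle markers tested, 3 were called higher and 1 lower, against 8.54% and 9.97% of all tested genes. Any of them under the floor in FaDu could enter the test only through shNSUN2. MYH11 was not called (edgeR adjusted p = 0.105). The marker called lower was ACTA2, smooth muscle actin, with 3.90, 2.56 and 1.88 CPM in the shNSUN2 libraries, against 7.75, 8.31 and 10.7 CPM in the FaDu libraries. The marker SMTN was highest in shNSUN2 replicate 3, at 39.0 CPM, against 26.4 and 25.9 CPM in the other two shNSUN2 libraries and 27.3 to 31.5 CPM in FaDu. The sum of the smooth muscle list was 44.8 to 60.2 CPM in shNSUN2 and 48.1 to 54.3 CPM in FaDu, most of it from SMTN and SYNM, which both groups expressed.

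Of 7 plasma cell markers, 5 reached 12 units in shNSUN2 and 0 in FaDu, with sums of 2.10 to 6.15 CPM in shNSUN2 and 0 to 0.267 CPM in FaDu. The immunoglobulin chain IGKC had 2.87, 0.505 and 0.844 CPM in the shNSUN2 libraries and 0 in each FaDu library (chosen after its values were seen). Of these markers 4 were tested and all 4 were called higher (median log2 fold change 6.61), against 8.54% of all tested genes. With 0 of the 7 at the floor in FaDu, they could enter the test only through shNSUN2, where they are high. Their count therefore adds no support beyond the detection itself. Of 8 prostate epithelial markers, 8 reached the floor in shNSUN2 and 4 in FaDu, with sums of 46.9 to 62.2 CPM in shNSUN2 and 28.3 to 31.6 CPM in FaDu. All 8 were tested, and 5 were called higher and 1 lower (median log2 fold change 7.51), against 8.54% and 9.97% of all tested genes. Markers under the floor in FaDu could enter the test only through shNSUN2, and they leave the size of these folds uncertain. Among 9 fibroblast markers, 8 reached it in shNSUN2 and 5 in FaDu, with sums of 108 to 133 CPM in shNSUN2 and 122 to 128 CPM in FaDu. Of 8 endothelial markers, 4 reached it in shNSUN2 and 3 in FaDu, with sums of 45.5 to 73.9 CPM in shNSUN2 and 40.3 to 46.9 CPM in FaDu, and EMCN was at 0 throughout. Of 9 leukocyte markers, 2 reached it in each group, with sums of 37.8 to 46.2 CPM in shNSUN2 and 31.4 to 51.6 CPM in FaDu and with PTPRC, CD3D and MS4A1 at 0 throughout. Of the fibroblast, endothelial and leukocyte markers 6, 3 and 2 were tested, with 1, 1 and 0 called higher and 0, 1 and 0 lower. Over all tested genes 8.54% were called higher and 9.97% lower. Here too, any marker under the floor in FaDu could enter the test only through shNSUN2. The part of such transcripts in the IGFBP5 result and in the other results was not tested. In bulk RNA, fewer cells of a type and less RNA per cell cannot be told apart.

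**Figure D2:**
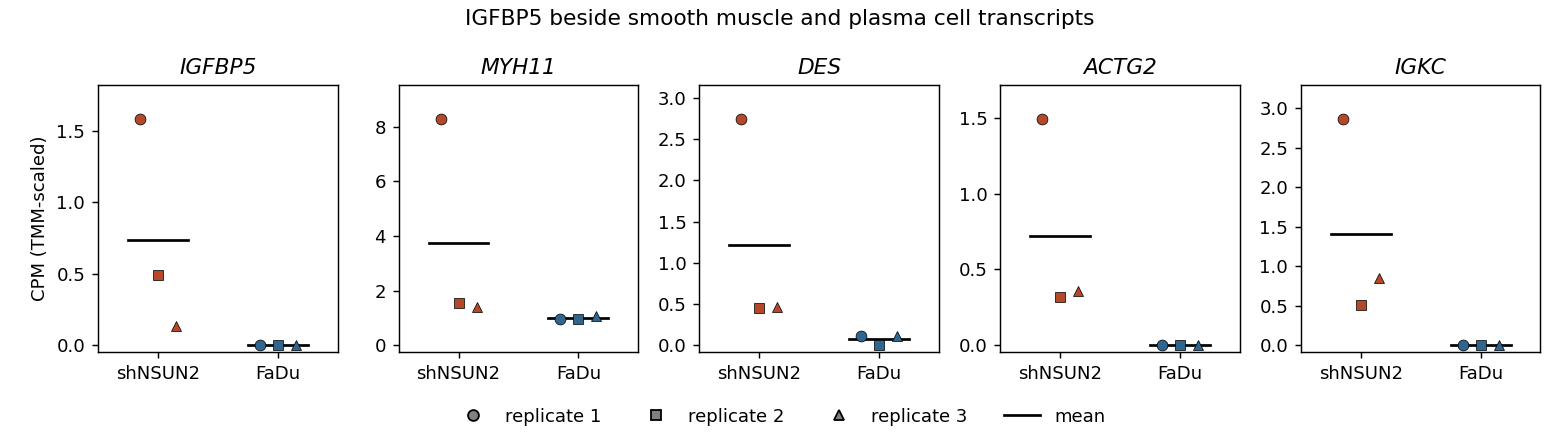
CPM (vertical axis) of IGFBP5, of the smooth muscle genes MYH11, DES and ACTG2 and of the plasma cell gene IGKC in the 3 shNSUN2 and 3 FaDu libraries; points are libraries and lines are means. The 4 marker genes were chosen after their values were seen and, unlike SMTN and ACTA2, stand highest in shNSUN2 replicate 1 by a wide margin, where IGFBP5 has 1.58 CPM and MYH11 8.29 CPM, and IGFBP5, ACTG2 and IGKC are at 0 in FaDu.

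IGFBP3 was the leading binding protein mRNA in shNSUN2 and IGFBP6 in FaDu. Levels of different genes were compared as CPM per kilobase of exonic length. The summed level of IGFBP2 to IGFBP7 was 261, 334 and 335 CPM per kb in the shNSUN2 libraries, against 199, 198 and 194 CPM per kb in the FaDu libraries. IGFBP3 made up 58.2% ± 5.19 of that sum in shNSUN2 and 17.2% ± 2.00 in FaDu (SD, n = 3 each). IGFBP6 made up 33.6% ± 4.15 in shNSUN2 and 68.4% ± 2.14 in FaDu. IGFBP7 had a share of 0.409% ± 0.0874 in shNSUN2 and 3.11% ± 0.231 in FaDu. None of these 3 shares overlapped between the groups, and no test of them was run. Without IGFBP3 the sum was 114, 120 and 153 CPM per kb in the shNSUN2 libraries, against 168, 164 and 157 CPM per kb in the FaDu libraries. The shares rest on the length used: over the longest transcript in place of all exons, IGFBP3 held 70.2% ± 4.41 in shNSUN2 and 25.8% ± 2.70 in FaDu.

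**Figure D3:**
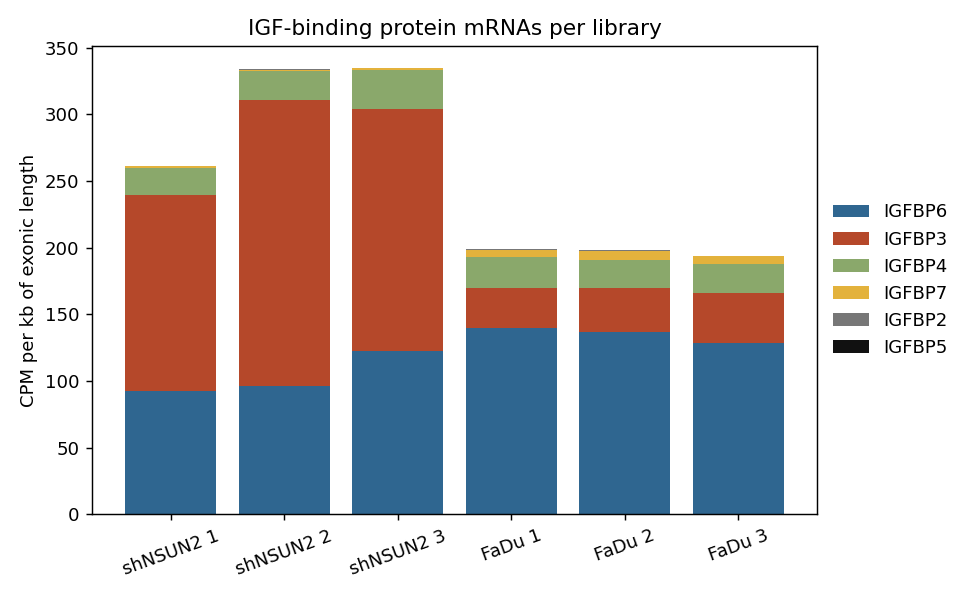
Stacked CPM per kilobase of exonic length (vertical axis, from 0) of the 6 binding proteins in each of the 3 shNSUN2 and 3 FaDu libraries. IGFBP3 is the tallest part in shNSUN2, at 58.2% of the stack on average, and IGFBP6 in FaDu, at 68.4%; IGFBP2 and IGFBP5 are too low to see.

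In shNSUN2 the order of levels per kilobase was IGFBP3 (181 ± 33.4 CPM per kb), IGFBP6 (104 ± 16.6), IGFBP4 (23.7 ± 4.41), IGF2R (17.5 ± 0.969), IGF1R (7.89 ± 0.450), IRS1 (6.25 ± 0.485), IRS2 (2.61 ± 0.756), IGFBP7 (1.26 ± 0.252), IGFBP5 (mean 0.114) and IGFBP2 (0.106 ± 0.0247). Neighbours in that order had separate ranges over the libraries except IGFBP5 and IGFBP2. In FaDu the order was IGFBP6 (135 ± 5.90 CPM per kb), IGFBP3 (33.8 ± 3.52), IGFBP4 (21.97 ± 0.809), IGF2R (18.3 ± 0.584), IGF1R (9.99 ± 0.236), IGFBP7 (6.13 ± 0.481), IRS1 (4.09 ± 0.206), IRS2 (2.07 ± 0.255) and IGFBP2 (0.235 ± 0.125), with IGFBP5 at 0. All neighbours in FaDu had separate ranges, but IGF2R passed IGFBP4 when the longest transcript was used as the length. IGFBP3 and IGFBP6 thus stood in reverse order in the groups, and IGFBP7 stood above IRS1 in FaDu and below IRS2 in shNSUN2.

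Neither IGF receptor was called. IGF1R, the signalling receptor, lies on chromosome 15 from 98648539 to 98964530. It had 104, 117 and 109 CPM in the shNSUN2 libraries, against 143, 139 and 136 CPM in the FaDu libraries. The groups did not overlap. With means of 110 ± 6.28 CPM in shNSUN2 and 139 ± 3.29 CPM in FaDu (SD, n = 3 each), IGF1R stood at 78.9% of the FaDu level. The difference of -0.34 on the log2 scale (SE 0.11) was just short of the threshold (edgeR adjusted p = 0.0599). It was called without shNSUN2 replicate 3 (edgeR adjusted p = 0.0327) and when genes needed 1 CPM in 3 libraries (edgeR adjusted p = 0.0391). Its adjusted p over all alternatives was 0.0327 to 0.203.

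IGF2R, the uptake receptor, lies on chromosome 6 from 159969099 to 160113507. It had 328, 315 and 294 CPM in the shNSUN2 libraries, against 337, 322 and 318 CPM in the FaDu libraries, and the groups overlapped. Its log2 difference was -0.06 (SE 0.10, edgeR adjusted p = 0.716), and 0.066 (edgeR adjusted p = 0.603) with an offset for GC content and length. Its span also holds the pseudogene CHP1P2 on the same strand, at 1.88 ± 0.485 CPM in shNSUN2 and 2.28 ± 0.241 CPM in FaDu (SD, n = 3 each).

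INSR, the insulin receptor, which forms hybrids with IGF1R and lies outside the 10 genes, had 6.13, 6.26 and 4.28 CPM in the shNSUN2 libraries, against 12.3, 11.4 and 11.2 CPM in the FaDu libraries. Every shNSUN2 library was below every FaDu library, and INSR fell (log2 fold change -1.06, SE 0.19, edgeR adjusted p = 0.00901). Per kilobase, IGF1R exceeded INSR by a ratio of 12.8, 13.98 and 19.0 in the shNSUN2 libraries, against 8.70, 9.18 and 9.11 in the FaDu libraries.

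Of the receptor substrates, IRS1 rose and IRS2 did not pass the test. IRS1, the docking protein that links both receptors to PI3K, lies on chromosome 2 from 226731317 to 226799759. It had 67.8, 58.9 and 60.1 CPM in the shNSUN2 libraries, against 41.2, 38.5 and 42.6 CPM in the FaDu libraries. The groups were apart, with means of 62.3 ± 4.83 CPM in shNSUN2 and 40.7 ± 2.05 CPM in FaDu (SD, n = 3 each). IRS1 rose by 0.61 on the log2 scale (SE 0.12, edgeR adjusted p = 0.013). The call ended without FaDu replicate 1, 2 or 3 (edgeR adjusted p = 0.0591, 0.072 and 0.0538), while the fold change stayed between 0.55 and 0.65 with any library left out.

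IRS2, which docks the same signals and is itself induced by FOXO factors, lies on chromosome 13 from 109752698 to 109786568. It had 18.5, 28.3 and 17.0 CPM in the shNSUN2 libraries, against 15.1, 16.3 and 19.1 CPM in the FaDu libraries. Only shNSUN2 replicate 2 stood above the FaDu range. The fitted log2 difference was 0.34 (SE 0.22, edgeR adjusted p = 0.32), and 0.075 without that library. The level of IRS1 over that of IRS2, per kilobase, was 3.00, 1.70 and 2.89 in the shNSUN2 libraries, against 2.23, 1.93 and 1.82 in the FaDu libraries, which overlap.

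Of the 9 tested members, 6 had groups that did not overlap, against 42.3% of all tested genes (20.3% higher and 22.1% lower in shNSUN2). They were IGFBP3 and IRS1, higher in shNSUN2, and IGFBP2, IGFBP6, IGFBP7 and IGF1R, lower in shNSUN2.

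**Figure D4:**
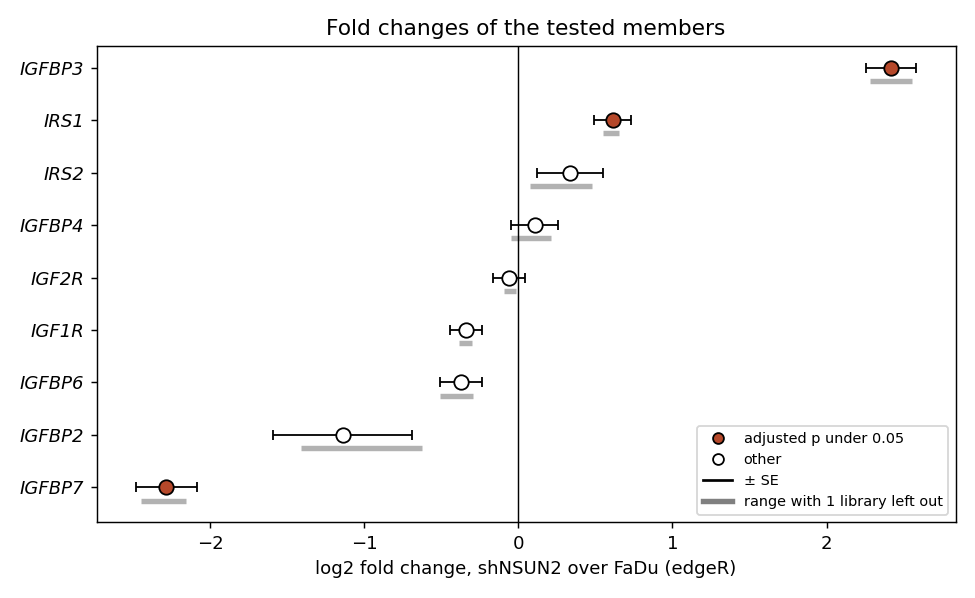
Log2 fold change of shNSUN2 over FaDu (horizontal axis) for the 9 tested genes, ± SE, with the range over the 6 fits that leave out a library as a grey bar. IGFBP3 at 2.42 and IGFBP7 at -2.29 lie farthest from 0, and IRS1 at 0.61 is the other gene with an adjusted p under 0.05.

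Beyond the 10 genes, 124 genes of the IGF system and its relatives were read in 9 lists, of which 109 were tested. Of these, 8 rose and 23 fell, and 78 did not pass the test, against 8.54% of all tested genes higher and 9.97% lower. Their median log2 fold change was 0.01. Of the 31 called genes, 15 were called in each of the 6 fits that left out a library, 4 of them higher and 11 lower. Those 15 were PAPPA2, STC2, MMP7, INSR, GRB10, SOCS3, PIK3CD, PIK3R3, TXNIP, CDKN1B, M6PR, CTSL, LIPA, IGF2BP2 and TNS3. The other 16 lost their call in at least 1 of those fits.

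The ligands were not detected or nearly so. IGF1, INS (insulin) and IGFBP1, a binding protein made in liver, were listed at 0 in all 6 libraries. IGF2 had 0, 0 and 0.0889 CPM in the shNSUN2 libraries, against 0, 0.0734 and 0 CPM in the FaDu libraries, all under the floor of 3 fragments. IGFALS, the subunit that holds IGFs in the circulation, reached at most 0.177 CPM in shNSUN2 and 0.107 CPM in FaDu. IGFBPL1, a secreted relative of the binding proteins, had 0.281, 0.135 and 0 CPM in the shNSUN2 libraries, against 0.0654, 0.422 and 0.0668 CPM in the FaDu libraries. None of the 6 genes of this list was tested.

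Among 12 proteases of binding proteins and their inhibitors, 9 were tested, 1 rose and 4 fell, against 18.5% of all tested genes called. Their median log2 fold change was -0.77. PAPPA2, a protease known to cut IGFBP3 and IGFBP5, had 0.606, 0.673 and 0.622 CPM in the shNSUN2 libraries, against 4.43, 6.27 and 5.64 CPM in the FaDu libraries. It was far lower in every shNSUN2 library (log2 fold change -3.10, SE 0.23, edgeR adjusted p = 0.00047). STC2, a stanniocalcin that blocks pappalysins, had 122, 156 and 112 CPM in the shNSUN2 libraries, against 295, 285 and 273 CPM in the FaDu libraries. The groups were apart (log2 fold change -1.13, SE 0.14, edgeR adjusted p = 0.00262). Its relative STC1 was at -0.77 (edgeR adjusted p = 0.0286) and HTRA1, a serine protease that carries an IGF-binding domain itself, at -1.58 (edgeR adjusted p = 0.0126). The STC1 call ended without FaDu replicate 1, 2 or 3 or shNSUN2 replicate 1, with adjusted p up to 0.115, and the HTRA1 call without FaDu replicate 2 (edgeR adjusted p = 0.0545). MMP7, a matrix metalloproteinase reported to cut binding proteins, rose to 3.04, 2.07 and 2.56 CPM in the shNSUN2 libraries, against 0.425, 0.147 and 0.254 CPM in the FaDu libraries (log2 fold change 3.20, SE 0.41, edgeR adjusted p = 0.00264). In FaDu the values of MMP7 lie close to the floor of 3 fragments, so the size of its fold is uncertain.

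Of 18 genes that act at the receptor, 16 were tested, 0 rose and 4 fell, against 18.5% of all tested genes called. Their median log2 fold change was -0.34. Besides INSR the genes that fell were GRB10, SOCS3 and PTPN1, each known to dampen insulin or IGF signalling. GRB10, an adaptor that inhibits both receptors, had 12.1, 18.6 and 13.5 CPM in the shNSUN2 libraries, against 47.5, 47.8 and 41.99 CPM in the FaDu libraries. SOCS3, an inhibitor induced by cytokines, had 14.3, 19.9 and 18.8 CPM in the shNSUN2 libraries, against 65.1, 61.3 and 59.3 CPM in the FaDu libraries. Neither gene overlapped between groups, and the log2 fold changes were -1.64 (SE 0.18, edgeR adjusted p = 0.00167) for GRB10 and -1.81 (SE 0.16, edgeR adjusted p = 0.000614) for SOCS3. PTPN1, the phosphatase that acts on the insulin receptor, was at -0.41 (edgeR adjusted p = 0.0399). Its call ended when any library other than shNSUN2 replicate 3 was left out, with adjusted p up to 0.146.

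Of 26 genes of PI3K, AKT and mTORC1, all tested, 2 rose and 3 fell, against 18.5% of all tested genes called. Their median log2 fold change was 0.23. PIK3R3, a regulatory subunit of PI3K, had 71.8, 79.0 and 51.7 CPM in the shNSUN2 libraries, against 20.3, 24.99 and 19.6 CPM in the FaDu libraries. PIK3CD, a catalytic subunit best known from leukocytes, had 2.65, 2.58 and 1.84 CPM in the shNSUN2 libraries, against 8.21, 6.81 and 8.50 CPM in the FaDu libraries. PIK3R3 and PIK3CD thus moved apart, with log2 fold changes of 1.64 (SE 0.19, edgeR adjusted p = 0.00182) for PIK3R3 and -1.74 (SE 0.21, edgeR adjusted p = 0.00221) for PIK3CD. The other PI3K subunits of the list did not pass the test (edgeR adjusted p = 0.541 to 0.987). EIF4EBP1, the translation repressor that mTORC1 inactivates, was at a log2 fold change of -0.84 (edgeR adjusted p = 0.0119), and MTOR at 0.39 (edgeR adjusted p = 0.0425). Both calls ended in fits that left out a library: EIF4EBP1 without FaDu replicate 3 (edgeR adjusted p = 0.058) and MTOR when any library other than shNSUN2 replicate 3 was left out (adjusted p up to 0.172).

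Of 17 tested FOXO factors and targets, 2 rose and 3 fell (median log2 fold change 0.01), against 18.5% of all tested genes called. CDKN1B, the cell cycle inhibitor p27, had 115, 141 and 131 CPM in the shNSUN2 libraries, against 78.6, 69.5 and 76.8 CPM in the FaDu libraries (log2 fold change 0.78, edgeR adjusted p = 0.00619). TXNIP, a brake on glucose uptake, had 254, 220 and 223 CPM in the shNSUN2 libraries, against 399, 406 and 452 CPM in the FaDu libraries (log2 fold change -0.85, edgeR adjusted p = 0.00299). CITED2 was at 0.71, and SESN1 and GADD45A were at -0.69 and -0.64 (edgeR adjusted p = 0.0237, 0.0291 and 0.0249). Each of these last calls ended without FaDu replicate 1, 2 or 3, and SESN1 also without shNSUN2 replicate 2 and GADD45A without shNSUN2 replicate 1, with adjusted p up to 0.11. The list thus moved in both directions.

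IGF2R works beside M6PR, the smaller mannose 6-phosphate receptor, which did fall. M6PR had 190, 209 and 199 CPM in the shNSUN2 libraries, against 386, 353 and 362 CPM in the FaDu libraries (log2 fold change -0.88, SE 0.10, edgeR adjusted p = 0.0019). Per kilobase the ratio of IGF2R to M6PR was 0.366, 0.318 and 0.312 in the shNSUN2 libraries, against 0.185, 0.193 and 0.186 in the FaDu libraries. Of the 26 genes of mannose 6-phosphate sorting, all tested, 1 rose and 5 fell, against 18.5% of all tested genes called. Their median log2 fold change was 0.05. The lysosomal enzymes CTSL and LIPA fell by 1.04 and 0.87 on the log2 scale (edgeR adjusted p = 0.00179 and 0.00332). GAA, another such enzyme, was at -0.68 and the sorting adaptor GGA2 at 0.61 (edgeR adjusted p = 0.015 and 0.0199). Both calls ended without FaDu replicate 1 or 3, and that of GAA without shNSUN2 replicate 1, with adjusted p up to 0.0994.

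Other secreted proteins with an IGF-binding domain gave 1 rise and 2 falls among 8 tested of 11, against 18.5% of all tested genes called. Their median log2 fold change was 0.12. CCN3 was at a log2 fold change of 0.77, CCN5 at -1.25 and KAZALD1 at -0.97 (edgeR adjusted p = 0.0203, 0.018 and 0.0433), and these calls ended without FaDu replicate 1 or 3, those of CCN5 and KAZALD1 also without FaDu replicate 2, and that of KAZALD1 without shNSUN2 replicate 1 or 2, with adjusted p up to 0.154. Of the 3 RNA-binding proteins named for the IGF2 mRNA, IGF2BP2 fell and the others did not pass the test, against 18.5% of all tested genes called. IGF2BP2 had 17.5, 16.3 and 14.7 CPM in the shNSUN2 libraries, against 39.7, 40.2 and 40.5 CPM in the FaDu libraries (log2 fold change -1.31, SE 0.13, edgeR adjusted p = 0.00091). IGF2BP1 and IGF2BP3 had log2 fold changes of 0.33 and 0.11 (edgeR adjusted p = 0.161 and 0.665).

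**Figure D5:**
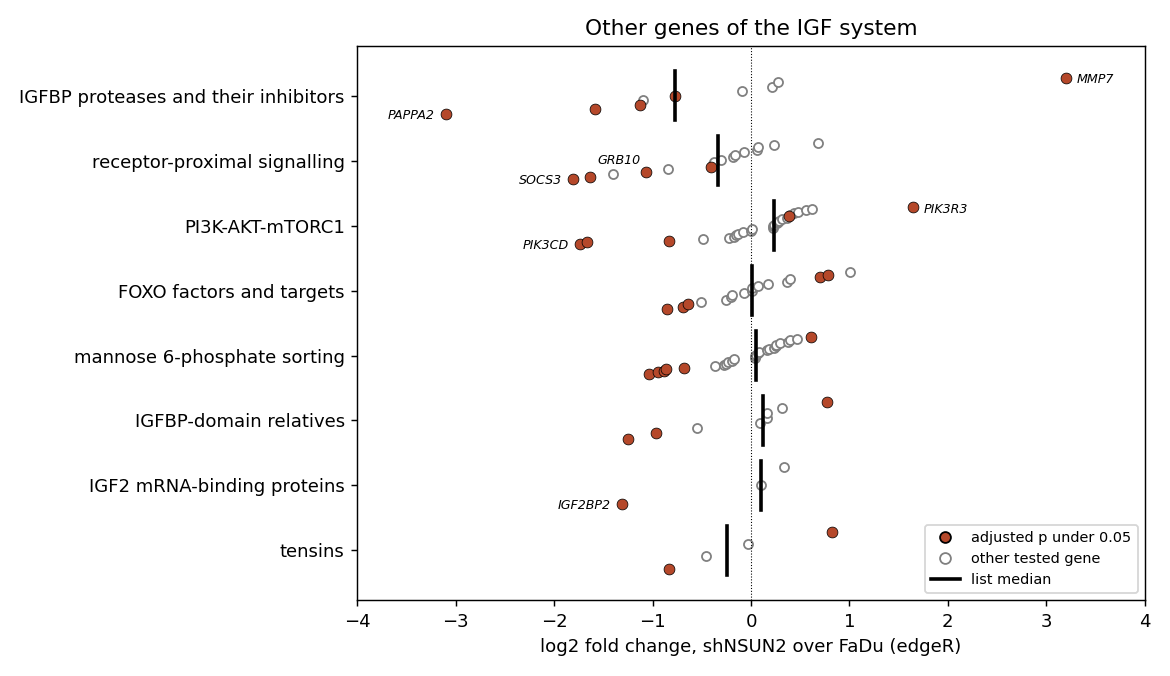
Log2 fold change of shNSUN2 over FaDu (horizontal axis) for each tested gene of the 8 lists with tested genes outside the 10 members; filled points have an adjusted p under 0.05 the line is the list's median and names mark large changes called in each fit that left out a library. PAPPA2 at -3.10 and MMP7 at 3.20 lie farthest out, both in the list of proteases.

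In the human genome several binding protein genes share a chromosome with tensin genes, which encode adaptors of focal adhesions. The gaps in the pairs below run from 18097 bases to 1353.28 kb. Whether such pairs change together was not tested. IGFBP3 and TNS3 on chromosome 7 are 1353.28 kb apart, with no protein-coding gene between them. TNS3 had 111, 129 and 127 CPM in the shNSUN2 libraries, against 73.3, 65.4 and 68.9 CPM in the FaDu libraries, so like IGFBP3 it was higher in every shNSUN2 library (log2 fold change 0.82, SE 0.12, edgeR adjusted p = 0.00405). IGFBP1, only 18577 bases from IGFBP3, was at 0 throughout. IGFBP6 and TNS2 on chromosome 12 are 33064 bases apart, and TNS2 was at a log2 fold change of -0.83 (edgeR adjusted p = 0.0403) beside the -0.38 of IGFBP6 that missed the threshold. The TNS2 call ended whichever library was left out, with adjusted p up to 0.15. TNS4, which is 18097 bases from IGFBP4, and TNS1, which is 1104.063 kb from IGFBP5, were at -0.03 and -0.46 and did not pass the test (edgeR adjusted p = 0.88 and 0.21).

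The genes whose pattern over the 6 libraries was most like that of IGFBP3 were CXCL17, TFPI2, GRHL3, MT-TF and DUSP5. Likeness was the root mean square difference between log2 (CPM + 0.5) values centred on each gene's mean, and it was 0.165 to 0.200 for these 5 genes. TFPI2, an inhibitor of serine proteases of the matrix, had means of 130 CPM in shNSUN2 and 22.3 CPM in FaDu. DUSP5, a phosphatase of nuclear ERK, had means of 220 CPM in shNSUN2 and 48.3 CPM in FaDu. MT-TF, a mitochondrial transfer RNA, had means of 15.5 CPM in shNSUN2 and 3.06 CPM in FaDu. The chemokine CXCL17 and the epithelial transcription factor GRHL3 were rarer, at 2.18 and 3.78 CPM in shNSUN2 and 0.111 and 0.318 CPM in FaDu. Both FaDu means lie below the 0.5 CPM that was added, which shrinks the difference between groups, so their likeness rests on that value. By edgeR their log2 fold changes were 4.25 and 3.54, against 2.42 for IGFBP3. Those of TFPI2, MT-TF and DUSP5 were 2.54, 2.34 and 2.19.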

How the data were processed

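RNA was measured by sequencing in 3 shNSUN2 and 3 FaDu libraries. The deposited table holds estimated counts per gene for 58825 Ensembl identifiers, as whole numbers. Per the submitters' processing notes HISAT2 2.0, StringTie 1.3.0 and Bowtie 0.12.2 were used, without roles, and the build listed there is a mouse one; the human build is not given in the sources used here. Values of 4 were 3.25 to 3.81 times as frequent as the mean of 3 and 5, so a fragment may count as several units (4 were assumed for the floor), and no counting interval is given. Symbols came from a gene name table (58472 matched) and positions and lengths from GENCODE 29 (58552 matched). Of the members, 9 had a RefSeq start region.

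The counts were rounded, filtered with filterByExpr (minimum count 10, minimum total 15), scaled by TMM and tested with edgeR 4.0.16 (R 4.3.3, robust glmQLFit, group alone). The SE is the log2 fold change over the square root of F. The same steps were tested on simulated data, where false calls exceeded the rate that the threshold names and the smallest changes were rarely recovered. The simulation changed far fewer genes than were called here, so its rates may not carry over to this comparison. Members and gene lists were chosen with earlier results of these data known. Named were the 10 members, NSUN2, up to 4 called genes per direction and list, all ligands, IGF2BP and tensin genes, INSR and M6PR, and the 5 genes most like the called binding protein of smallest adjusted p. A value that this rule would name is not reported here. Markers enter by list sums and counts. Alternatives were other scaling, filters, DESeq2 1.42.0, a replicate block, a GC and length offset (mgcv 1.9.3), each library left out, and the longest transcript as length.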

Additional observations from a re-analysis of the deposited data

How the results depend on the processing

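IGFBP3 and IGFBP7 kept their call and direction in every alternative run. The number of called members was 3 with the size factors of DESeq2, 4 by DESeq2 itself or with no filter (IGFBP5 added), 4 at 1 CPM in 3 libraries (IGF1R added), 4 with the GC and length offset (IGFBP6 added), and 2 to 6 with a library left out. The 6 came without shNSUN2 replicate 3, with IGFBP5, IGFBP6 and IGF1R added, and the 2 without FaDu replicate 1, 2 or 3. IGFBP5, at 0 in FaDu, could enter a filtered fit only through shNSUN2, so its added call is no separate support. Over all genes, 3532 calls became 1354 to 4271 with a library left out, and the 31 pathway calls 17 to 36, both lowest without a FaDu library (pathway calls 17, 19 and 17). The log2 fold change of NSUN2 was -2.15 to -1.88 with a library left out. IGFBP4 ran from -0.051 to 0.212 with a library left out, below 0 without shNSUN2 replicate 3, and IGF2R changed sign with the GC and length offset (0.0658, and 0.0654 with the replicate block added); neither passed the test in any setting. Over the 9 tested members, 105 of 116 recomputed folds kept direction and side of the threshold. The order of levels kept 18 of 20 ranks with the longest transcript.

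No shared effect of the replicate number was seen: deviations of same-numbered libraries correlated at -0.07, 0.06 and -0.03. Those of differently numbered libraries correlated at -0.09 to 0.13. Such values cannot tell whether the libraries were paired. With the replicate block 3 members, 25 pathway genes and 2370 genes in all were called. The cause of these changes was not tested. Levels under 0.160 to 0.220 CPM rest on fewer than 3 fragments, if a fragment is worth 4 units.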
